A study of Mus musculus with 12 samples.

Results

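The oocyte transcription regulators *Nobox*, *Figla*, *Sohlh1*, *Sohlh2*, *Lhx8*, *Taf4b* and *Tbpl2* were taken by gene symbol, with no rule on their measured values. They were chosen with earlier results of these data known. All 7 were found among the 55401 genes of the count table. Their counts came from 12 RNA sequencing libraries of oocytes that were cut out of ovary sections by laser capture microdissection (LCM). The libraries formed 4 groups of 3, from primordial or primary follicles and with control (DMSO, labelled sham) or dorsomorphin (DM, an inhibitor of the energy sensor AMPK). The mice were female hybrids of a cross that the labels give as C57Bl/6j x CBA/J, 7 to 8 days old, and all ovaries, controls included, were cultured for 5 days, although the labels describe the material as in vivo. Cultures received 5 to 10 µM DM, and which dose the sequenced ovaries had is not given in the sources used here. Each library pooled 200 oocytes chosen by their appearance in stained sections, so that 1 library is not a single cell or animal.

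The ovary keeps its supply of oocytes in primordial follicles, which rest until some are recruited to grow and reach the primary stage. A small set of germ cell transcription factors is known to build and maintain this reserve. NOBOX and LHX8 are homeodomain proteins needed for the early growth of the oocyte. FIGLA, SOHLH1 and SOHLH2 are basic helix-loop-helix (bHLH) proteins, which bind the E-box as dimers. FIGLA is known for switching on the zona pellucida genes, and SOHLH1 and SOHLH2 act upstream of several of the others. TAF4B is a gonad-enriched subunit of TFIID, the complex that places RNA polymerase II at promoters, and TBPL2 takes the place of the TATA-binding protein in growing oocytes.

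In the GENCODE annotation of GRCm38 all 7 are protein-coding genes with no exon shared with another gene. *Nobox* (ENSMUSG00000029736.15) lies at chr6:43303674-43309554 on the minus strand and *Figla* (ENSMUSG00000030001.4) at chr6:86016171-86020996 on the plus strand. *Sohlh1* (ENSMUSG00000059625.6) lies at chr2:25842995-25847248 and *Tbpl2* (ENSMUSG00000061809.8) at chr2:24071721-24096595, both on the minus strand. *Sohlh2* (ENSMUSG00000027794.4) lies at chr3:55182028-55209957 on the plus strand and *Lhx8* (ENSMUSG00000096225.7) at chr3:154306294-154330659 on the minus strand. *Taf4b* carries the identifier ENSMUSG00000054321.7. The counts are 1 value per gene, so the parts of a gene are not told apart here.

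*Nobox* and *Sohlh1* were the members whose control and DM libraries of primordial follicles did not overlap, and the 250 bases before their starts are shown for that reason (RefSeq, GRCm38.p6). They were searched on both strands for the E-box CANNTG, the homeodomain sites TAATTG and TAATTA, and the TATA box TATAAA, and capitals mark the E-boxes. The *Nobox* stretch is chr6:43309555-43309804 and the *Sohlh1* stretch is chr2:25847249-25847498, both read on the minus strand and ending at the base before the start.
Nobox: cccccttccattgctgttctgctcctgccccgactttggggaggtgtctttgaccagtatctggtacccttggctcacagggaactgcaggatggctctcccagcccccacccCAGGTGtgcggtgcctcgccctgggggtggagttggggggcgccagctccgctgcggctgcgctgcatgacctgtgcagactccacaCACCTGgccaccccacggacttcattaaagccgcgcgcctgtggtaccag
Sohlh1: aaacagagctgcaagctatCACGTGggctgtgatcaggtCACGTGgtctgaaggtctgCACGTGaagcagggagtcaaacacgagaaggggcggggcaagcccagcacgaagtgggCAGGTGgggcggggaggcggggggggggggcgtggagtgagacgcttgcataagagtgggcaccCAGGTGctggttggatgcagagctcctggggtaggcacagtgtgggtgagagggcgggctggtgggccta
The *Sohlh1* stretch held 5 E-boxes, a number reached by 1.15% of the 32851 promoters of the same table, and the *Nobox* stretch held 2, which 31.8% of promoters reached. At least 1 E-box was present in 66.2% of all promoters. Neither stretch held the homeodomain sites, present in 11.3% of promoters, or the TATA box, present in 12.4%. A match of letters is a description of the sequence, and binding was not measured. Of the 7 members, 6 had a promoter in the table, and *Taf4b* did not.

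Total counts ranged from 14034586 to 42639326 per library. Levels are given as CPM, the counts scaled to the total of a library, and a count of 0 allows up to 3 counts, which corresponds to 0.0704 to 0.214 CPM. Reads were amplified from little RNA and carried no molecular identifiers, so these limits and all counting intervals cover counting error only. A gene was called detected in a library with more than 3 counts. Control libraries detected 4206 to 10687 genes, with a median of 7408.5, and DM libraries 4670 to 7616, with a median of 5265. The control of primary follicles with replicate number 3 stood apart from the other controls, with the lowest number of genes and 51.2% of its counts in 100 genes. It was nearer to the primary DM libraries, which detected 4670 to 5314 genes and had 35.6% to 48.5% of their counts in 100 genes. Of 13 oocyte markers, the control libraries detected 8 to 12 (median 11) and the DM libraries 2 to 9 (median 6.5), with summed levels of 11.2 to 1677 CPM and 6.98 to 1115 CPM. The germ cell gene *Ddx4* was detected in all 12 libraries, *Dazl* in 5 of 6 controls and 1 of 6 DM libraries. Granulosa and stromal transcripts were abundant in these laser-cut oocytes. Of 11 granulosa markers, 4 to 9 were detected in controls and 4 to 8 with DM, at summed levels of 805 to 7451 CPM and 13.2 to 11210 CPM, with *Fshr* and *Cyp19a1* at 0 in every library. Of 8 stromal markers, 5 to 8 were detected in controls and 6 to 7 with DM, at 2545 to 6492 CPM and 2165 to 12531 CPM, and no stromal marker was at 0 throughout. Of 7 endothelial and blood markers, 0 to 2 were detected in controls and 1 to 4 with DM, at 0.0661 to 34.8 CPM and 0.143 to 609 CPM, and *Adgre1*, *Hbb-bs* and *Hba-a1* were at 0 in every library. The part of these differences in the results below was not tested, and in pooled samples fewer intact oocytes cannot be told apart from less RNA per oocyte.

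The 7 regulators were low and patchy. *Nobox* and *Lhx8* were each detected in 6 of 12 libraries, *Sohlh1* in 4, *Figla* and *Taf4b* in 3, *Tbpl2* in 2 and *Sohlh2* in none. Of genes detected in at least 1 library, 41.7% were detected in 6 or more, 56.8% in 4 or more and 66.3% in 3 or more. In control oocytes, the median level per kilobase of exon was 3.18 CPM for *Lhx8*, 0.841 for *Taf4b*, 0.397 for *Nobox*, 0.309 for *Sohlh1*, 0.171 for *Figla*, 0.0454 for *Tbpl2* and 0 for *Sohlh2* (n = 6). The SDs over the same 6 libraries, in the same order, were 8.83, 2.96, 0.462, 0.244, 1.03, 22.1 and 0.0250, so that no neighbours in this order differed by more than the larger of their SDs. The mean of *Tbpl2*, at 9.16 CPM per kilobase, exceeded its median because 1 library held nearly all of its counts.

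**Figure D1:**
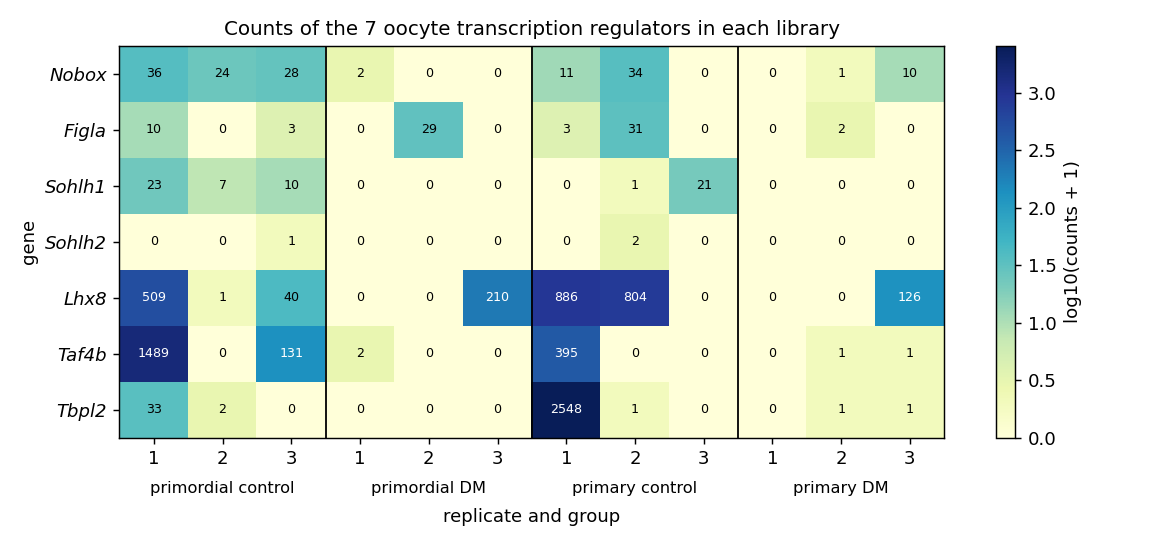
Counts of the 7 regulators (rows) in each of the 12 libraries (columns, 3 replicates in each of 4 groups), with the count printed in each cell and colour on a scale of log10(counts + 1). Control libraries held most of the counts, and high values sat in single libraries, such as 2548 counts of *Tbpl2* in 1 primary control.

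The regulators were detected more often in control than in DM oocytes. Of the 42 combinations of a regulator and a control library, 20 had more than 3 counts (47.6%), beside 50.0% for all genes detected in any library. With DM 4 of 42 did (9.52%), beside 39.4% for all genes. The 4 DM values were *Figla* and *Lhx8* in 1 library each from primordial follicles, and *Nobox* and *Lhx8* in the same library from primary follicles. The number of regulators detected was 6, 2 and 4 in the controls and 0, 1 and 1 in the DM libraries of primordial follicles. The primary controls detected 4, 3 and 1, and the primary DM libraries 0, 0 and 2. At this limit the groups did not overlap in primordial follicles, where the lowest control had 2 regulators, and they overlapped in primary follicles. The separation in primordial follicles depended on the limit. With more than 10 counts the numbers there were 5, 1 and 3 in controls and 0, 1 and 1 with DM, which overlapped. With any count they were 6, 4 and 6 in controls and 2, 1 and 1 with DM. A primordial control with 7463 genes detected 2 regulators, and DM libraries with similar numbers of genes, 7498 and 7616, detected 1 and 0. A primary control with 4206 genes detected 1 regulator, and primary DM libraries with 4670, 4850 and 5314 genes detected 0, 2 and 0. The part of the number of genes in these differences was not tested. These counts describe the libraries, and no test was made over the list.

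**Figure D2:**
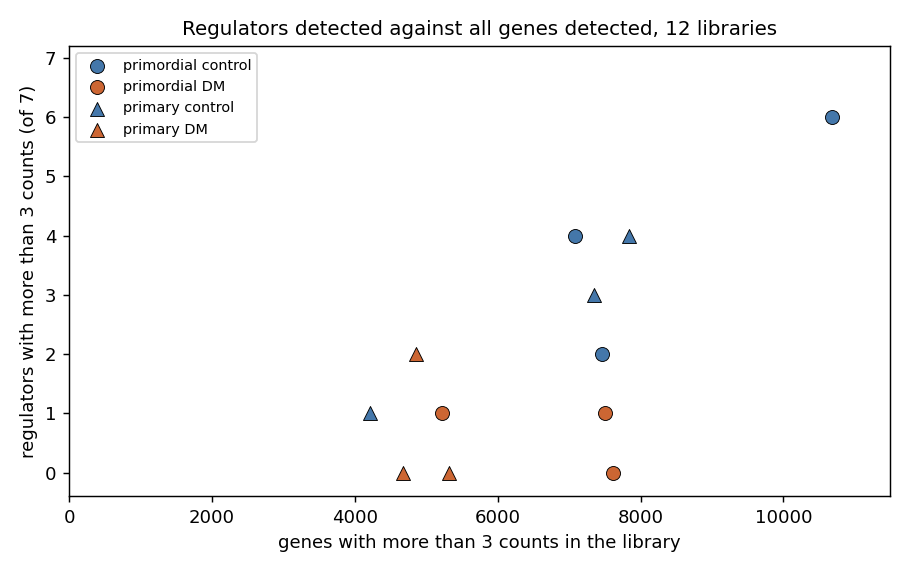
Number of the 7 regulators with more than 3 counts (vertical axis) against the number of all genes with more than 3 counts (horizontal axis) in each of the 12 libraries, with circles for primordial and triangles for primary follicles, blue for control and orange for DM. The 6 DM libraries lie between 0 and 2 regulators, and the 6 controls between 1 and 6.

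The effect of DM was tested in each stage with edgeR's quasi-likelihood test and Benjamini-Hochberg adjustment over all genes tested. In primordial follicles 1 of 6699 genes was called at an adjusted p under 0.05 (0.0149%), and in primary follicles 0 of 4181 (0%). At an unadjusted p under 0.05 these numbers were 491 (7.33%) and 508 (12.2%). DESeq2 called 650 of the 4749 genes to which it gave an adjusted p in primordial follicles (13.7%) and 698 of 2097 in primary follicles (33.3%). A filter on low counts left *Nobox* and *Lhx8* for testing in primordial follicles and *Lhx8* in primary follicles. In edgeR 0 members were called in either stage. In primordial follicles 1 member, *Nobox*, had an unadjusted p under 0.05 and was called by DESeq2, which gave *Lhx8* no p-value. *Nobox* passed the filter there through its control libraries, so this call is no measure of the list. Without the filter DESeq2 gave it an adjusted p of 0.151. In primary follicles 0 members had an unadjusted p under 0.05, and DESeq2 called 0. Of the 7 members, 2 (*Nobox* and *Sohlh1*) were lower with DM in every primordial library than in any control, beside 7.09% of all genes with a count there. Among the 6699 genes that passed the filter, which include *Nobox* and not *Sohlh1*, 736 were lower in this way, a larger share. In primary follicles 0 members were, beside 7.04% of genes.

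*Nobox*, the homeodomain regulator of early oocyte growth, was detected in all 3 primordial controls. It had 36, 24 and 28 counts in the primordial controls and 2, 0 and 0 with DM. Every control was above every DM library, and the means were 1.15 ± 0.627 CPM and 0.0174 ± 0.0302 CPM (SD, n = 3). The summed counts, scaled to depth, were 46.0 times higher in controls, with an exact 95% counting interval of 12.4 to 386. Without the DM library that held the 2 counts, *Nobox* was at least 10.1-fold higher in controls, measured against a floor of 3 counts per library, and without DM replicate 2 the ratio was 29.0. The fitted log2 fold change was -5.34 (SE 2.45), with an unadjusted p of 0.0294 and an adjusted p of 0.658 in edgeR. DESeq2 gave an adjusted p of 0.0304, the lowest of the alternatives, which reached up to 0.999. In primary follicles *Nobox* had 11, 34 and 0 counts in controls and 0, 1 and 10 with DM, and the groups overlapped. It did not pass the filter there, and its log2 fold change in an unfiltered edgeR fit was -0.71 (SE 2.92, adjusted p = 0.875). That unfiltered value turned positive under DESeq2's scaling and without control replicate 2. In the same comparison marker lists differed too. In primordial follicles 10 to 11 oocyte markers were detected in controls and 2 to 9 with DM, and the 8 tested had a median log2 fold change of -1.20, beside 0.13 for all genes. Granulosa markers summed to 805 to 2583 CPM in controls and 13.2 to 1889 CPM with DM, with a median of -1.60 over the 6 tested. In edgeR 0 markers of either list were called, 1 (*Foxl2*) had an unadjusted p under 0.05, and DESeq2 called 2 granulosa markers lower, *Foxl2* (83932 and 814 counts) and *Nr5a2* (9301 and 35). Stromal markers went the other way, with 6 of 6 tested higher with DM and a median of 1.05. Their summed levels overlapped, at 2545 to 3479 CPM in controls and 2165 to 4085 CPM with DM. Of them edgeR called 0 and DESeq2 called *Dcn* higher (533 and 8563 counts). The 1 endothelial and blood marker tested was higher too (7.44). Of all genes, DESeq2 called 13.7% in this comparison. The part of these shifts in the values of *Nobox* and *Sohlh1* was not tested.

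*Lhx8*, a LIM homeodomain gene, had the highest summed counts of the 5 homeodomain and bHLH genes and was either abundant or nearly missing in a library. Primordial controls had 509, 1 and 40 counts and DM libraries 0, 0 and 210. Primary controls had 886, 804 and 0 counts and DM libraries 0, 0 and 126. In both stages 2 of 3 DM libraries had no count and the third was within the range of the controls. The edgeR log2 fold change with DM was 0.55 (SE 2.54, adjusted p = 0.978) in primordial and -2.51 (SE 2.77, adjusted p = 0.626) in primary follicles. Neither difference exceeded the spread between libraries, and both changed sign with the scaling of the libraries.

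**Figure D3:**
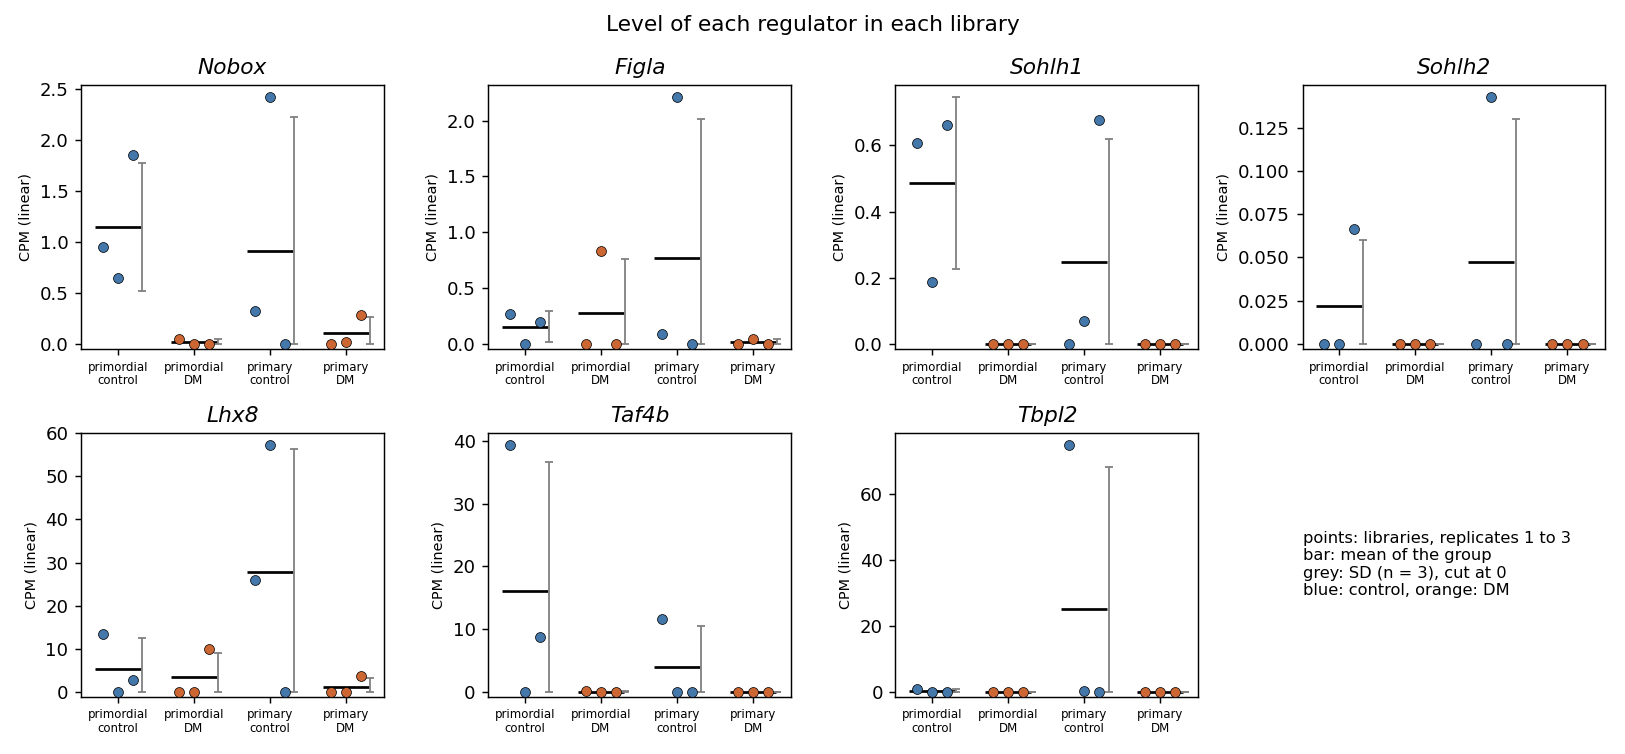
Level of each regulator in CPM (linear vertical axes, 1 panel per gene) in the 4 groups. Points are libraries, black bars are means and grey bars are SDs (n = 3) drawn down to 0 at most. *Nobox* and *Sohlh1* in primordial follicles show 3 control points above all 3 DM points, and *Taf4b*, *Lhx8* and *Tbpl2* show means set by 1 or 2 libraries.

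Among the bHLH genes, *Sohlh1* was detected in control libraries only. It had 23, 7 and 10 counts in the primordial controls and 0, 0 and 0 with DM. Every primordial control was above the DM libraries. The mean of the controls, 0.486 ± 0.259 CPM (SD, n = 3), was at least 4.75-fold higher than the mean floor of 3 counts per DM library, and the lowest control was at 0.189 CPM. In primary follicles *Sohlh1* had 0, 1 and 21 counts in controls and 0, 0 and 0 with DM. The groups overlapped at 0, and 21 of the 22 counts came from the control library that stood apart. Over both stages, with stage as a term, edgeR gave *Sohlh1* an unadjusted p of 0.0020 and an adjusted p of 0.173, and DESeq2 an adjusted p of 0.0438. Controls had 62 counts and DM libraries 0, which put controls at least 3.85-fold higher, and without the control library that stood apart at least 3.21-fold.

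*Figla*, the activator of zona pellucida genes, showed no common direction. Primordial controls had 10, 0 and 3 counts and DM libraries 0, 29 and 0. The groups overlapped, and its log2 fold change in an unfiltered edgeR fit was 1.61 (SE 2.75, adjusted p = 0.768). Without the DM library that held the 29 counts the value was -4.90. Primary controls had 3, 31 and 0 counts and DM libraries 0, 2 and 0, again with overlap. Summed counts were 22.6 times higher in the primary controls, with a counting interval of 5.79 to 194, and 31 of the 34 control counts came from 1 library. *Sohlh2*, the partner of SOHLH1, had 1 count in a primordial control, 2 counts in a primary control and 0 in the other 10 libraries. Both treatments were at or under the floor of 3 counts, and a difference of *Sohlh2* was not detectable at this depth.

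The regulators of the general transcription machinery had the highest single counts, although in CPM the highest value of *Lhx8* (57.3) exceeded that of *Taf4b* (39.3). *Taf4b* had 1489, 0 and 131 counts in primordial controls and 2, 0 and 0 with DM. Its primary controls held 395, 0 and 0 counts, and the primary DM libraries 0, 1 and 1. At each stage a control library without a count overlapped the DM libraries. The primordial counts were 847 times higher in controls, with a counting interval of 234 to 7000, and 118 times higher without the control library that held 1489 of them. Over both stages the log2 fold change with DM was -7.05 (SE 2.83), with an unadjusted p of 0.0129, an adjusted p of 0.228 in edgeR and an adjusted p of 0.0394 in DESeq2. *Tbpl2* had 33, 2 and 0 counts in primordial controls and 0, 0 and 0 with DM. Primary controls had 2548, 1 and 0 counts and DM libraries 0, 1 and 1. At each stage a control without a count of *Tbpl2* overlapped the DM libraries. Scaled to depth, counts over both stages were 1522 times higher in controls, with a counting interval of 421 to 12573. The edgeR fit over both stages without the filter gave *Tbpl2* an adjusted p of 0.355 for DM. Without the library that held 2548 counts the ratio was 26.5, with an interval of 6.83 to 228. Of the control counts left, 33 were in 1 primordial library, and in primary follicles the remaining counts were too few for a fold.

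With the 2 stages in 1 model, 0 of 8500 genes had an adjusted p under 0.05 for DM in edgeR (0%), 1085 had an unadjusted p under 0.05 (12.8%), and DESeq2 called 710 of 3971 (17.9%). The filter left 4 members, *Nobox*, *Sohlh1*, *Lhx8* and *Taf4b*. In edgeR 0 were called, and 2, *Sohlh1* and *Taf4b*, had an unadjusted p under 0.05 and were called by DESeq2. The members passed this filter through their control libraries, so the 2 of 4 are no measure of the list. *Nobox* had 133 counts in controls and 13 with DM, a log2 fold change of -2.84 (SE 2.29, adjusted p = 0.700). *Lhx8* had 2240 and 336 counts, with a log2 fold change of -0.77 (SE 2.41, adjusted p = 0.984) that was positive under DESeq2's scaling. Summed over the 7 members, counts were 7084 in controls and 386 with DM. Of the 7084, 2548 were *Tbpl2* in 1 library and 1489 were *Taf4b* in another. In summed CPM the treatments overlapped at both stages. Primordial controls had 55.5, 0.917 and 14.1 CPM and DM libraries 0.105, 0.831 and 9.98. Primary controls had 113, 62.2 and 0.675 CPM and DM libraries 0, 0.117 and 3.93. The median log2 fold change of all genes was -0.50, and the values of the members are given as fitted.

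**Figure D4:**
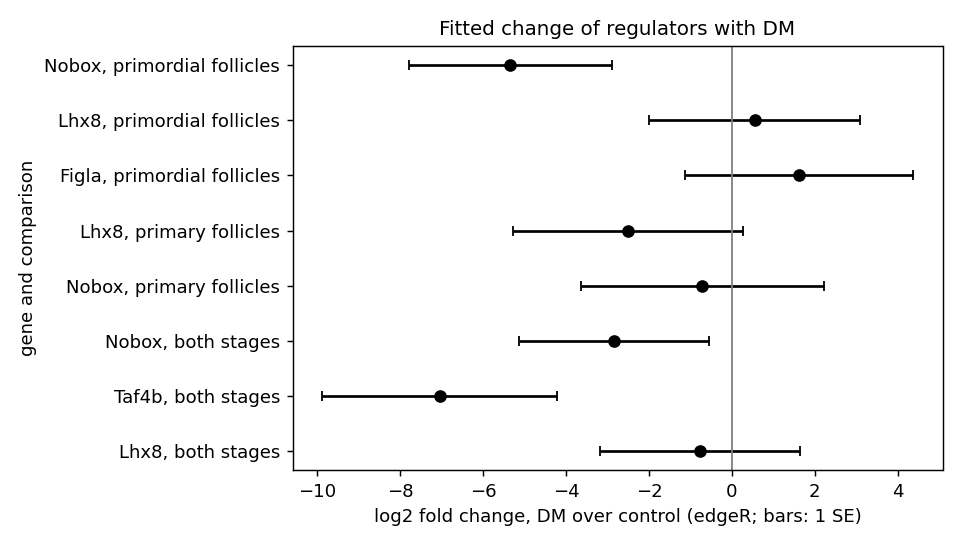
Fitted log2 fold change with DM (horizontal axis) for the fits given in the text, in each stage or over both. Points carry bars of 1 SE (edgeR). *Sohlh1*, which had no count with DM, and *Tbpl2* are not drawn. Of the fits drawn, *Nobox* in primordial follicles (-5.34) and *Taf4b* over both stages (-7.05) lie farthest below 0, and *Lhx8* and *Figla* lie within about 1 SE of it.

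The response to DM was not shown to differ between the stages. For the interaction of stage and DM, edgeR called 0 of 8500 genes (0%), 1605 had an unadjusted p under 0.05 (18.9%), and DESeq2 called 677 of 4501 (15.0%). Of the 4 members tested 0 were called by either tool. The interaction of *Nobox*, the log2 fold change with DM in primary minus that in primordial follicles, was 4.65 (SE 3.72, adjusted p = 0.479). It was -2.82 (SE 4.23, adjusted p = 0.736) for *Lhx8* and 3.12 (SE 4.21, adjusted p = 0.698) for *Taf4b*.

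Primary and primordial follicles were compared within each treatment, with the same libraries as above. In controls edgeR called 0 of 6726 genes (0%), 433 had an unadjusted p under 0.05 (6.44%), and DESeq2 called 288 of 4447 (6.48%). With DM edgeR called 0 of 4331 (0%), 746 had an unadjusted p under 0.05 (17.2%), and DESeq2 called 934 of 2485 (37.6%). In controls 4 members were tested in edgeR and 0 were called by either tool, and DESeq2 gave *Taf4b* no p-value. With DM 0 members passed the filter. *Lhx8* had 550 counts in the primordial and 1690 in the primary controls, a log2 fold change of 2.59 (SE 3.10, adjusted p = 0.915). *Nobox* had 88 and 45 counts (-0.54, SE 2.14, adjusted p = 0.986) and *Sohlh1* 40 and 22 (1.33, SE 2.14, adjusted p = 0.960), with signs that changed when 1 library was left out. *Taf4b* had 1620 and 395 counts (-1.52, SE 2.91, adjusted p = 0.974). The counts of *Tbpl2*, known for its role in growing oocytes, were 35 in primordial and 2549 in primary controls, and 2548 of the latter came from 1 library. With DM *Nobox* had 2 counts in primordial and 11 in primary follicles, a ratio of 4.92 with a counting interval of 1.07 to 45.7. Of those 11 counts 10 were in 1 library, without which both stages were at or under the floor and gave no fold, and without primordial replicate 1 the bound was 0.900. *Lhx8* had 210 and 126 counts with DM (log2 fold change -0.28, SE 3.40, adjusted p = 0.958 in the edgeR fit without the filter). Over both treatments edgeR called 0 of 8500 genes for stage (0%), 995 had an unadjusted p under 0.05 (11.7%), and DESeq2 called 661 of 3839 (17.2%), with 0 of 4 members called by either tool. The log2 fold changes there were 1.55 (SE 2.23, adjusted p = 0.909) for *Nobox*, 1.23 (SE 2.42, adjusted p = 0.948) for *Lhx8* and, without the filter, 5.83 (SE 2.87, adjusted p = 0.418) for *Tbpl2*.

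Genes reported as targets of these factors were detected in larger numbers in most controls than in most DM libraries. Of 15 such genes, control libraries detected 8 to 13 (median 10.5) and DM libraries 2 to 11 (median 6). For all genes detected in any library, 50.0% of combinations with a control library and 39.4% with a DM library were detected. Many of the 15 are also among the 13 oocyte markers above, so the lists are not separate observations. For DM over both stages 13 were tested and edgeR called 0. Of the 13, 3 had an unadjusted p under 0.05, all lower with DM, beside 12.8% of all genes in either direction. DESeq2 called 1 of the 13, *Zp1*, and it called 17.9% of all genes. The median log2 fold change of the 13 was -0.88, beside -0.50 for all genes. *Pou5f1*, the pluripotency factor that oocytes also express, had 53, 0 and 5 counts in primordial and 12, 0 and 0 in primary controls and 0 in the DM libraries (unadjusted p = 0.0065, adjusted p = 0.198 in edgeR). *Zp1*, a zona pellucida glycoprotein, had 11253 counts over the controls and 56 with DM, a log2 fold change of -6.72 (SE 2.72, adjusted p = 0.231). *Zar1*, a maternal-effect gene, had 2294 and 39 counts (-6.27, SE 2.67, adjusted p = 0.270), and it also had 222 counts in primordial and 2111 in primary follicles (6.60, SE 2.71, adjusted p = 0.285 for stage). Of the other zona pellucida genes, *Zp2* had 432 counts in controls and 64 with DM, and *Zp3* had 238 and 442. In the interaction *Npm2*, a histone chaperone of the oocyte, had 3 and 15 counts in primordial control and DM libraries and 292 and 0 in primary ones. *Mos*, the kinase of meiotic arrest, had 11 and 69 counts and 0 and 604, of which 603 were in 1 library. Their adjusted p values were 0.182 and 0.241 (edgeR). In each stage alone, 8 targets were tested for DM, 0 had an unadjusted p under 0.05 in edgeR and DESeq2 called 0. Their medians were -0.68 in primordial and -1.48 in primary follicles, beside 0.13 and 0.31 for all genes.

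**Figure D5:**
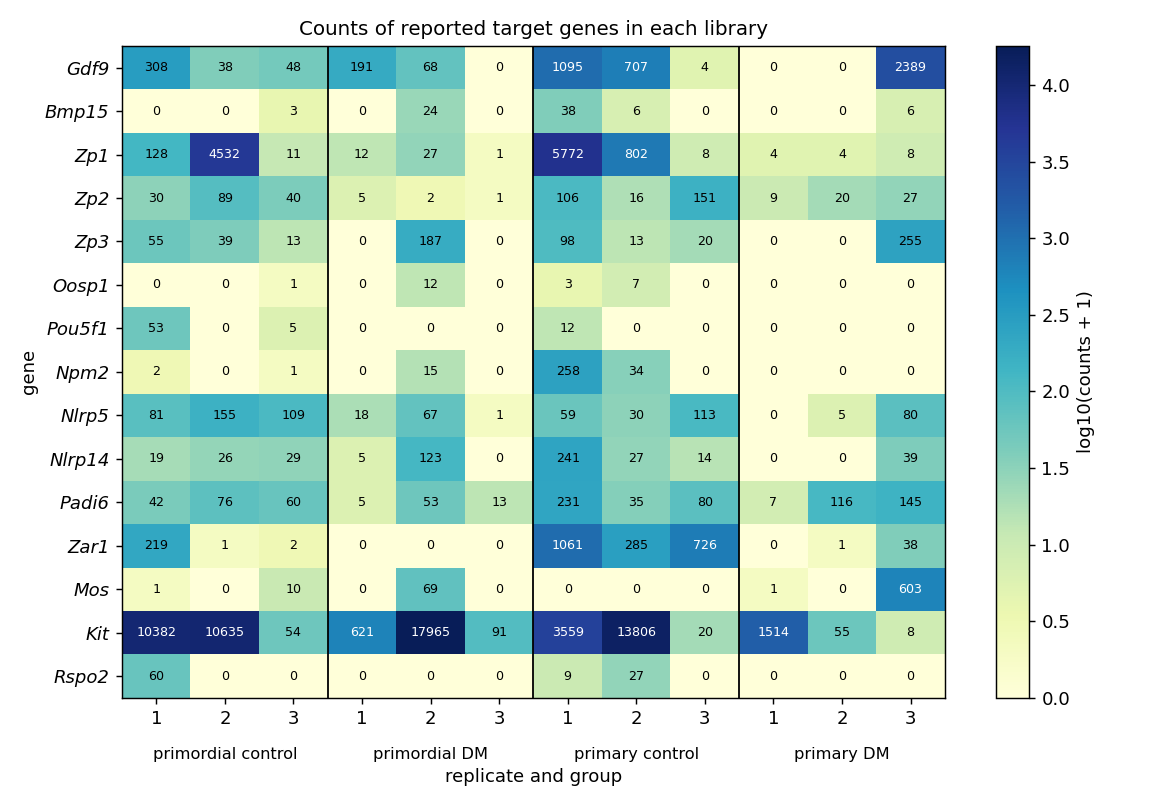
Counts of 15 genes reported as targets of these factors (rows) in each library (columns, 3 replicates in each of 4 groups), with the count printed in each cell and colour on a scale of log10(counts + 1). *Pou5f1* and *Rspo2* are at 0 in the 6 DM libraries, and *Zp3* and *Mos* are high in single DM libraries.

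The partners of TAF4B and TBPL2, the TBP family with TFIID and TFIIA, formed a list of 20 genes, of which the controls detected 8 to 16 (median 11.5) and the DM libraries 6 to 11 (median 8). For DM in primordial follicles 10 were tested and edgeR called 0, with a median log2 fold change of -2.36, beside 0.13 for all genes. At an unadjusted p under 0.05, 2 were lower, beside 7.33% of all genes in either direction. The 2 were *Taf10*, a core TFIID subunit (32775 counts in controls and 70 with DM, -8.24, SE 3.60), and *Tbp*, the TATA-binding protein itself (25525 and 158, -7.13, SE 3.39), both with an adjusted p of 0.658. DESeq2 called both, and it called 13.7% of all genes. In primary follicles 9 were tested and edgeR called 0. At an unadjusted p under 0.05, 2 were lower, beside 12.2% of all genes in either direction. The 2 were *Taf6* (961 and 0 counts, adjusted p = 0.395) and the TFIIA gene *Gtf2a1* (143008 and 1742 counts, adjusted p = 0.395). DESeq2 called 1 of the list, *Taf6*, and it called 33.3% of all genes. A single library held most of each sum, with 888 of the 961 counts of *Taf6* in control replicate 2 and 138689 of the 143008 counts of *Gtf2a1* in the control that stood apart. *Tbp* had 274692 of its 274774 counts in primary DM oocytes in 1 library, and its interaction was 13.11 (SE 3.74, adjusted p = 0.0974), while that of *Taf2*, with 99222 counts in 1 primary DM library, was 9.70 (SE 3.76, adjusted p = 0.165). Over both stages 11 were tested and edgeR called 0, with a median of -1.88 beside -0.50 for all genes. At an unadjusted p under 0.05, 4 were lower with DM, beside 12.8% of all genes in either direction. Among the 4 were *Taf6* (adjusted p = 0.207), *Taf10* (0.236) and *Taf3* (0.356). DESeq2 called 1 of the list, *Taf6*, and it called 17.9% of all genes. For stage in controls, *Gtf2a1* had a log2 fold change of 6.21 (SE 2.47, adjusted p = 0.742), with the same 138689 counts in 1 primary library. For stage with DM the values were 12.07 for *Tbp*, 9.01 for *Taf2* and 9.34 for *Taf10*, each with an adjusted p of 0.286, and 1 primary library held nearly all counts of each gene (26089 of 26150 for *Taf10*). Over both treatments they were 7.05 for *Taf10* (adjusted p = 0.237), with 96907 of 146271 primary counts in the control library that stood apart, and -6.65 for *Taf3* (adjusted p = 0.313), with 2309 of 2371 primordial counts in 1 control.

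The bHLH partners of FIGLA and the SOHLH proteins and other regulators used with them formed a list of 7 genes, of which 5 to 7 were detected in every library. For DM 0 of them had an unadjusted p under 0.05 in primordial follicles (7 tested), in primary follicles (6 tested) or over both stages (7 tested) in edgeR. DESeq2 called 1 of them, the dynein light chain gene *Dynll1*, in primary follicles (28797 counts in controls and 39 with DM), and 0 in primordial follicles or over both stages. Of all genes in primary follicles, it called 33.3%. *Tcf4*, an E-protein that pairs with tissue-specific bHLH factors, had the most counts, with 204957 in controls and 414771 with DM. It had 27581 counts in primordial and 177376 in primary controls (log2 fold change 4.52, SE 2.27, adjusted p = 0.749), with 132413 of the latter in the library that stood apart, and 119282 and 500446 over both treatments (4.26, SE 1.56, adjusted p = 0.238). The widely expressed genes *Tcf4*, *Tcf12* and *Stat3* were detected in all 12 libraries, including those with no count of *Sohlh1* or *Figla*.

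The genes with a pattern most like that of a member were found by Pearson's r of log2(TMM-scaled CPM + 1) over the 12 libraries, among 6193 genes detected in at least 6. For *Nobox* they were *Mars* (r = 0.891, Spearman's rho = 0.847) and *Dnajc8* (0.890 and 0.776). For *Lhx8* they were *Zfp574* (0.913 and 0.748) and *Ddr1* (0.881 and 0.798). The libraries share their preparation and differ in the number of genes detected, and the 2 genes named for each member are the extremes of all those compared, so the values are a description only.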

How the data were processed

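Counts of reads per gene were deposited without normalization for 12 libraries, 3 in each of 4 groups named from the sample labels. According to the study's methods, the authors trimmed reads with trim_galore, mapped them to mm10 with TopHat2 and counted them with featureCounts. The submitters' processing notes name Trim Galore, STAR and featureCounts, and this difference in the mapper, like the strand setting of the counting, could not be settled. Unmapped or multiply mapped reads could not be examined in the counts. Both a TruSeq RNA Access kit and the Smart-seq II method are described for the libraries.

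The members and gene lists were chosen with earlier results of these data known. All 7 members are described, and of the pathway lists genes with an unadjusted p under 0.05, at most 3 per list and comparison, or otherwise the gene with the most counts. Outside this rule 6 genes, *Zp2*, *Zp3*, *Tcf12*, *Stat3*, *Dynll1* and *Rspo2*, were named after their values were seen. Counts were tested over whole tables in R 4.3.3 with edgeR 4.0.16 (filterByExpr, TMM, glmQLFit and glmQLFTest) on the groups compared, or on all 12 libraries with stage and DM as terms. P-values were adjusted by the Benjamini-Hochberg method, with a threshold of 0.05. A standard error is the size of the log2 fold change divided by the square root of F. For members without the filter, the fit on all genes with a count was used and is named as such. Groups at 0 were compared with a floor of 3 counts per library, and sums of 1 to 3 counts with exact Clopper-Pearson 95% intervals. Alternatives were DESeq2 1.42.0, other scalings and filters, a replicate block, 1 fit over 12 libraries and leaving out each library. DESeq2 without a filter was added after the data were seen. The code was tested on simulated data. Libraries of a group differed beyond sampling noise (chi-square per degree of freedom of at least 1588), so each was kept as 1 sample. Nothing in the labels says whether libraries of a group came from separate animals, though the study's legends call them independent, and p-values measure the spread between libraries, which may be technical. Promoters and gene positions came from RefSeq and GENCODE tables of GRCm38, and Python 3.11.15 with SciPy 1.17.1 was used outside R.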

Additional observations from a re-analysis of the deposited data

How the results depend on the processing

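Of 20 reported log2 fold changes of members, 11 kept their sign under every alternative computed, and 28 of 343 alternative values had the opposite sign. The cause of these reversals was not tested, except that leaving out a library removes its counts. In edgeR the count of members called stayed 0 under every scaling, filter and left-out library. For DM in primordial follicles DESeq2 called 1 member, as did DESeq2 without a filter (a different gene, *Taf4b*, adjusted p = 0.0427, while *Nobox* had 0.151), and 1 had an unadjusted p under 0.05. For DM over both stages DESeq2 called 2, DESeq2 without a filter 0, and 2 had an unadjusted p under 0.05.

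*Lhx8* with DM in primordial follicles was -0.73 with library size alone, and -9.96 to 1.93 with each library left out. In primary follicles it was 0.14 with DESeq2, 0.14 with DESeq2's size factors in edgeR and 0.063 with DESeq2 without a filter, and over both stages 1.54, 1.54 and 1.49. *Nobox* with DM in primary follicles was 1.56, 1.54 and 1.56 under the same settings and -3.45 to 1.20 with libraries left out. *Figla* with DM in primordial follicles ran from -4.90 to 2.19 with libraries left out. Between stages in controls, *Nobox* ran from -2.31 to 0.048 and *Sohlh1* from -3.88 to 2.86 with libraries left out, and *Sohlh1* was -0.98 with library size alone. Between stages with DM, *Lhx8* was 0.26 with DESeq2, with or without a filter, 0.27 with DESeq2's size factors in edgeR, and -9.61 to 9.27 with libraries left out. Its interaction ran from -12.56 to 7.12.

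No sign of pairing was seen between same-numbered libraries. Of 18 such pairs 0 had a correlation of deviations over 0.1 (range -0.0354 to 0.041). Libraries of a group differed so widely that this check cannot tell whether same-numbered libraries shared animals or a batch. With a replicate block 0 members were called in each of the 7 comparisons, and the block turned *Lhx8* (-3.19) and *Figla* (-2.27) with DM in primordial follicles and *Sohlh1* between stages in controls (-1.66).

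With any count as the limit, 28.6% of combinations with DM libraries and 66.7% with controls were detected, beside 54% and 63.0% for all genes. With more than 10 counts the shares were 7.14% and 40.5%, beside 29.25% and 39.6% for all genes. With each DM library left out, 5.71% to 11.4% of combinations with DM libraries had more than 3 counts. The lowest value was without replicate 3 of primary follicles with DM. *Sohlh2* was at or under the floor of 3 counts under both treatments, and folds against a DM group with 3 or fewer counts rest on those few counts. Whether depth set these low counts was not tested.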
